A study of Mus musculus with 18 samples.

Results

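Matrix metalloproteinases are zinc-dependent enzymes that cut collagens, elastin and other proteins outside the cell, and the tissue inhibitors of metalloproteinases, the Timp proteins, bind and block them. The 9 genes described here are 6 proteases (Mmp2, Mmp3, Mmp9, Mmp11, Mmp12 and Mmp14) and 3 inhibitors (Timp1, Timp2 and Timp3). They were taken as every probe set of the array whose single gene symbol in the platform annotation is one of these names, which gave 15 of 12488 probe sets and 9 of 8252 genes with such a name. Of those 15, 9 probe sets for 8 genes were bright enough to be tested, out of 8888 tested probe sets in all. No tested probe set stood for Mmp9.

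The arrays carried total RNA from mice of 8 weeks, labelled mdx (the control) or dko, from leg muscle, heart and the small extraocular muscles around the eyeball, with 3 arrays in each of 6 groups. By common usage both kinds of mice lack dystrophin, so the controls are dystrophic as well, and dko mice lack the related protein utrophin in addition; the labels do not spell the abbreviation out. No unaffected muscle is among the 18 arrays. The labels do not say that arrays of a group came from separate animals, nor whether animals were pooled, so each p-value reflects array-to-array spread, which may be technical.

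In muscle, Mmp2 and Mmp9 are the gelatinases, Mmp3 (stromelysin 1) cuts proteoglycans, basement membrane proteins and other pro-enzymes, Mmp11 is stromelysin 3, Mmp12 is the macrophage elastase, and Mmp14 is anchored in the membrane and activates pro-Mmp2. Timp1 is a secreted inhibitor that is induced in inflamed and repairing tissue, Timp2 takes part in the activation of pro-Mmp2 by Mmp14, and Timp3 is bound to the matrix. Dystrophic limb muscle goes through rounds of fibre death, entry of macrophages and repair with fibrosis, in which the matrix is cut and laid down again.

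The promoters of the 4 members whose levels differed most between the groups are shown for a reading of what lies in front of each gene. Each line gives the 250 bases upstream of a RefSeq transcription start in GRCm38.p6, 5′ to 3′ on the gene's strand, and all 4 genes lie on the plus strand. Capitals mark the AP-1 motif TGAGTCA and the TATA motif TATAAA, both searched on both strands; the motifs do not share bases. The Mmp3 window is chr9:7445572-7445821, that of Mmp12 chr9:7347124-7347373 (the second of 2 starts in the table), that of Timp1 chrX:20869916-20870165 and that of Timp3 chr10:86300162-86300411.
Mmp3: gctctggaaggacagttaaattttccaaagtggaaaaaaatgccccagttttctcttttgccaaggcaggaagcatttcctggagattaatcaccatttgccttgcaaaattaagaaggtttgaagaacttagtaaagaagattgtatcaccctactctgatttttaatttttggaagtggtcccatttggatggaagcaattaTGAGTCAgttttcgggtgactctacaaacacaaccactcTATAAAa
Mmp12: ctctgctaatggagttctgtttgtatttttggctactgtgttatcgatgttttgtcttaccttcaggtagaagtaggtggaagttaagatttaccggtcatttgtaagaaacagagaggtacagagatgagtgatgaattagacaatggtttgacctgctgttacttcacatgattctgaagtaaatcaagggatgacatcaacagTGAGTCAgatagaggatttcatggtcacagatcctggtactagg
Timp1: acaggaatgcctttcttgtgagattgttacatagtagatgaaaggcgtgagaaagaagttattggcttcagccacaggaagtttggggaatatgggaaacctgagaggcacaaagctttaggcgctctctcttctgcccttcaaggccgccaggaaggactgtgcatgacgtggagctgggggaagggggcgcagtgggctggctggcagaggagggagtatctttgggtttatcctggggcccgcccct
Timp3: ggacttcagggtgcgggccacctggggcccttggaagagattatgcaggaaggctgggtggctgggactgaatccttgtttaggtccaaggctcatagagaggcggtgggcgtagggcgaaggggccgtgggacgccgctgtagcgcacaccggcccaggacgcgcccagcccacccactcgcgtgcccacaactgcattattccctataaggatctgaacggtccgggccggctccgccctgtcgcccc

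The AP-1 motif began 46 bases upstream of the Mmp3 start and 44 bases upstream of the second Mmp12 start. It stood in 4.46% of 32851 windows of the same length in the RefSeq table. The TATA motif stood in the Mmp3 window alone among 8 windows for 7 of the 9 members, and in 12.4% of all windows. In the Mmp3 window it began 7 bases upstream of the annotated start. The Timp1 window held neither motif and 6 CG dinucleotides, equal to the median of 6 over all windows, and the Timp3 window held neither and 18. The other Mmp12 window and those of Mmp11, Mmp14 and Timp2 held neither motif. These matches describe letters only. Mmp12 and Mmp3 lie in a cluster of Mmp genes on chromosome 9, where the annotation orders Mmp13, Mmp12, Mmp1b, Mmp3, Mmp1a, Mmp10 and Mmp8. The windows of the cluster genes Mmp13 and Mmp10 and 1 window of Mmp7 also held both motifs. Their AP-1 motifs began 35, 63 and 63 bases upstream. The Mmp8 window and the other Mmp7 window held neither.

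Values are intensities as deposited, on a linear scale, and they can be compared between arrays for 1 probe set but not between probe sets. Differences were fitted on log2(intensity + 166.7) with limma, two-sided, with Benjamini-Hochberg adjustment over all 8888 tested probe sets, and a difference passed at an adjusted p under 0.05. Folds are on that scale and understate the change of dim probe sets. The arrays bear replicate numbers 1 to 3, and the 6 arrays numbered 3 had lower medians (525.6 to 573.75) than the other 12 (612.6 to 671.8). A second fit therefore carried the replicate number as a block, and is given where it changes a call. The block was the number within each tissue for comparisons of dko with mdx, and the number common to all arrays for comparisons between tissues. A pairing of single dko and mdx arrays was not shown, so comparisons of arrays of the same number below are descriptions. As a check of the tissues, Myh6 of heart muscle averaged 35190 and 32090 in mdx and dko heart and at most 1242 in the other groups, and Tnnt3 of fast skeletal muscle averaged at least 38870 in both skeletal muscles and at most 285.4 in heart. In mdx heart against mdx leg muscle, 8 of 10 skeletal muscle genes passed lower and 1 higher, and 9 of 11 heart genes passed higher. Some members of these lists did not set the tissues apart. Acta1 averaged 14010 and 6091 in mdx and dko heart and 2387 and 7951 in leg muscle. Myl2 of the heart list averaged 11460 and 3015 in heart, 20950 and 21000 in extraocular muscle and 1294 and 19610 in leg muscle. Of the 6 genes on the array listed for extraocular muscle, Kcna1 read 182.1 to 1906.7 in mdx and 200.4 to 1793.6 in dko extraocular muscle and at most 92.5 on the other arrays. Others of that list did not set the tissue apart: Alpl averaged 1291 and 950.6 in mdx and dko extraocular muscle and 1292 and 1205 in heart, Myh7 was nearly as high in dko leg muscle (16270) as in mdx extraocular muscle (17690), and Myh6 was highest in heart. The utrophin probe set 92507_at averaged 748.1, 493.6 and 643.6 in mdx extraocular, leg and heart muscle and 304.8, 265.9 and 258.1 in dko.

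**Figure D1:**
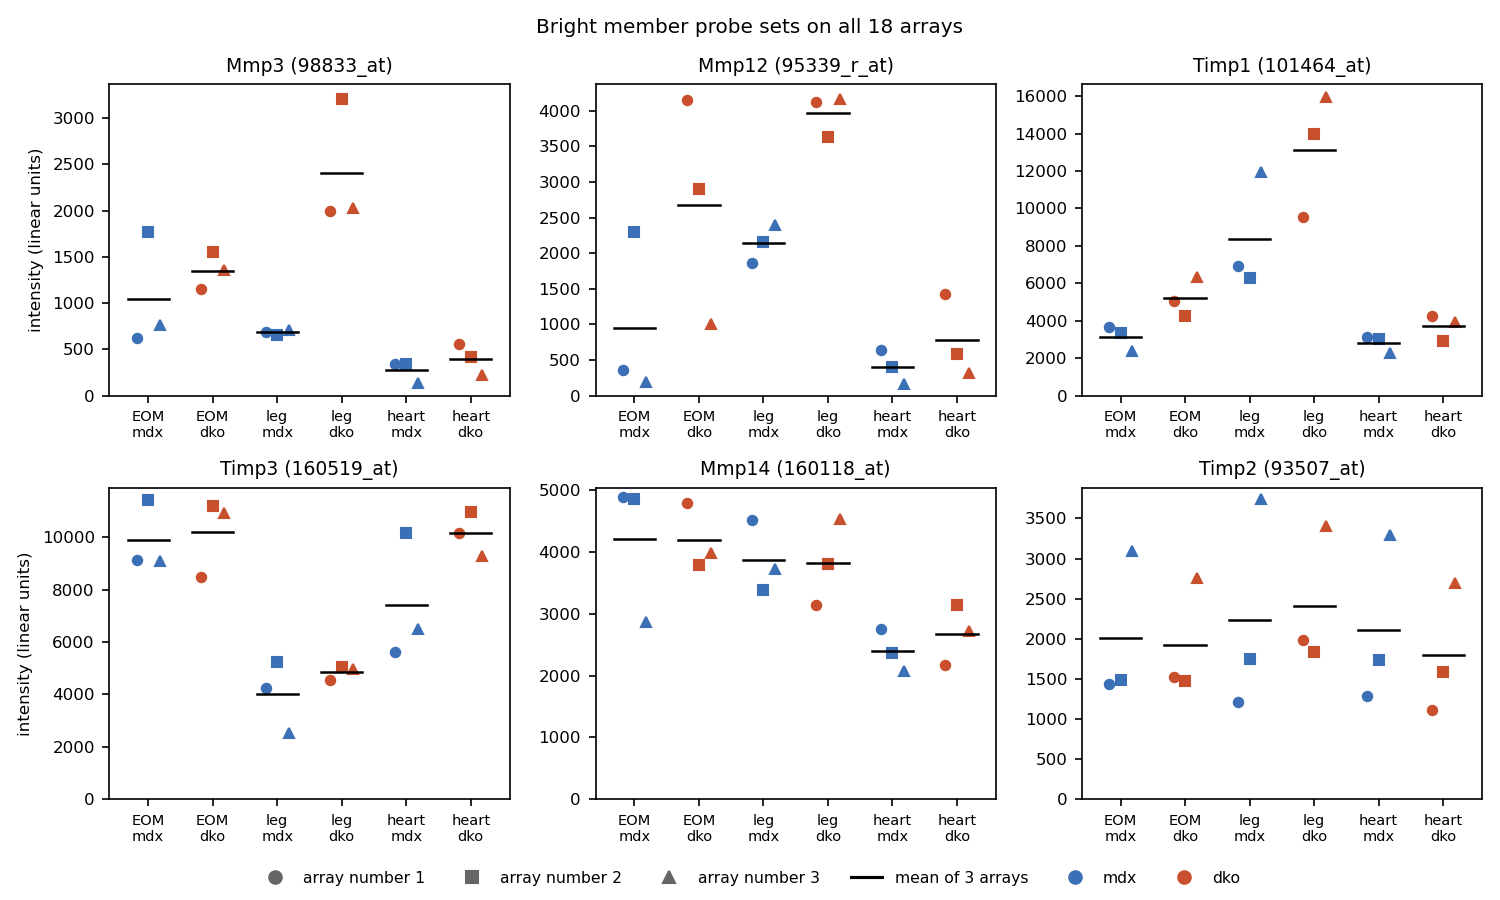
Intensity (linear units, vertical axis from 0) of 6 members on each of the 18 arrays, by tissue (EOM, extraocular muscle) and genotype; symbols give the replicate number and bars the mean of 3 arrays. Mmp3, Mmp12 and Timp1 reached their highest means in dko leg muscle, Timp3 had its lowest mean in mdx leg muscle, and Timp2 was highest on the array numbered 3 in all 6 groups.

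Mmp3 gave the largest difference between dko and mdx leg muscle among the members. Its probe set 98833_at read 1993.5, 3210.7 and 2026.5 on the dko leg arrays numbered 1, 2 and 3, and 689.3, 656.8 and 707.1 on the mdx leg arrays. All 3 dko arrays lay above all 3 mdx arrays, and the mdx values spread little. The means were 2410 ± 693 and 684.4 ± 25.5 (SD, n = 3), a log2 difference of 1.57 (SE 0.33), or 2.96-fold. It did not pass the test (limma, adjusted p = 0.128) and passed it with the replicate block (adjusted p = 0.015), as did 1.2% of all tested probe sets. With the block and without the arrays numbered 1, 2 or 3 it did not pass, at log2 differences of 1.68, 1.33 and 1.69 (limma, adjusted p = 0.122, 0.134 and 0.109). With 4 times the added constant it passed without the block, at 1.17 (limma, adjusted p = 0.0424).

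The Mmp3 difference was smaller in size in the other tissues. In extraocular muscle Mmp3 read 1150.7, 1549.3 and 1353.0 in dko and 616.9, 1764.4 and 761.3 in mdx. The mdx array numbered 2 exceeded every dko array, so the groups overlapped, and the log2 difference was 0.43 (SE 0.33). In heart Mmp3 read 553.6, 422.0 and 217.0 in dko and 338.0, 344.1 and 136.3 in mdx, with a log2 difference of 0.35 (SE 0.33). Each dko heart array was above the mdx array of its own number, while the groups overlapped. The dko change in extraocular muscle minus that in leg muscle was -1.14 (SE 0.47; limma, adjusted p = 1, and 0.381 with the block) and that in heart minus leg muscle -1.21 (SE 0.47; adjusted p = 1, and 0.205 with the block), so the changes were not shown to differ. Over the mean of the 3 tissues Mmp3 was higher in dko by 0.78 (SE 0.19), which passed with the block alone (limma, adjusted p = 0.222, and 0.0275 with the block, as 0.788% of all tested probe sets did). That blocked call also ended without the arrays of any 1 number (adjusted p = 0.246, 0.0674 and 0.255 without numbers 1, 2 and 3).

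Levels of Mmp3 were ordered dko leg, dko extraocular, mdx extraocular, mdx leg, dko heart, mdx heart. Dko leg muscle did not overlap with dko extraocular muscle, and mdx leg muscle did not overlap with dko heart; the other neighbours in that order overlapped. Heart was the low tissue. The log2 difference of dko heart from dko leg muscle was -2.21 (SE 0.33; limma, adjusted p = 0.000236), and dko extraocular muscle exceeded dko heart by 1.47 (adjusted p = 0.00943). In mdx mice the difference of extraocular muscle from heart was 1.39 (SE 0.33; adjusted p = 0.0149). The difference of mdx heart from mdx leg muscle was -0.99 with no overlap, which passed with the block alone (limma, adjusted p = 0.0727, and 0.0138 with the block). Neither call of extraocular muscle against heart held with each array left out in turn. In dko mice the call ended without the heart array numbered 3 (1.21, limma, adjusted p = 0.0571). In mdx mice it ended without the extraocular array numbered 2 (1.00, adjusted p = 0.0826) or the heart array numbered 3 (1.14, adjusted p = 0.0846).

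Mmp12, the macrophage elastase, was read by a pair of tested probe sets. On 95339_r_at, the brighter one, the extraocular arrays read 4151.4, 2895.7 and 1002.4 in dko and 365.6, 2295.3 and 184.8 in mdx. The dko array was above the mdx array of the same number for all 3 numbers, but the groups overlapped through the mdx array numbered 2. The log2 difference of 1.69 (SE 0.63, 3.23-fold) was the largest of any member in dko against mdx and did not pass (limma, adjusted p = 1; 0.234 with the block). On 95338_s_at the extraocular arrays read 1071.8, 844.9 and 994.9 in dko and 447.8, 336.0 and 268.9 in mdx. These groups did not overlap, and the difference of 1.15 (SE 0.33, 2.21-fold) did not pass (limma, adjusted p = 0.928; 0.128 with the block). The arrays of the extraocular groups were thus in the same direction on both probe sets, with the spread within a group far larger on 95339_r_at.

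In leg muscle Mmp12 read 4126.6, 3630.6 and 4171.1 in dko and 1865.0, 2159.9 and 2392.4 in mdx on 95339_r_at. No dko array overlapped with an mdx array, and the log2 difference was 0.85 (SE 0.63; limma, adjusted p = 1; 0.283 with the block). On 95338_s_at the leg values were 1046.9, 1738.6 and 2428.3 in dko and 485.5, 759.3 and 1417.0 in mdx, a difference of 0.88 (SE 0.33; adjusted p = 0.594; 0.0814 with the block). There each dko array was above its mdx counterpart and the groups overlapped. In heart the probe sets disagreed in sign. The brighter one read 1424.5, 586.6 and 318.6 in dko and 633.9, 403.5 and 166.0 in mdx (0.65, SE 0.63), and the other 348.9, 223.9 and 101.1 against 186.8, 218.2 and 305.4, a log2 difference of -0.08 (SE 0.33). Neither passed.

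Between tissues Mmp12 was lower in heart than in leg muscle. In dko mice the log2 difference of heart from leg muscle was -2.31 on 95339_r_at (SE 0.63; limma, adjusted p = 0.0242) and -2.27 on 95338_s_at (SE 0.33; adjusted p = 0.000201), and no heart array reached a leg array. In mdx mice the corresponding values were -2.11 (adjusted p = 0.0432) and -1.30 (adjusted p = 0.0187). Calls of the brighter probe set were marginal. The mdx call ended when any 1 of the 6 arrays was left out, at log2 differences of -2.40 to -1.77 (limma, adjusted p = 0.0533 to 0.167). The dko call ended without 5 of the 6, each array except dko heart number 1 (limma, adjusted p = 0.0617 to 0.108). On 95338_s_at the mdx call ended without heart array 1, heart array 2 or leg array 3 (-1.21, -1.27 and -0.96; adjusted p = 0.0751, 0.0585 and 0.0897), and the dko call held with every array left out in turn. Extraocular muscle exceeded heart in dko mice on 95338_s_at by 1.59 (adjusted p = 0.00576), and by 1.58 on 95339_r_at, which did not pass (adjusted p = 0.171). On both probe sets the order of the groups began with dko leg, dko extraocular and mdx leg muscle, each overlapping with the next. The group that followed did not overlap with mdx leg muscle, and was dko heart on 95339_r_at and mdx extraocular muscle on 95338_s_at. Further down the order on 95339_r_at, mdx extraocular muscle reached 2295.3 and overlapped with mdx leg muscle (1865 to 2392.4).

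Mmp14, the membrane-anchored protease, had no genotype difference that passed. It read 4792.4, 3784.4 and 3988.0 in dko and 4895.5, 4862.0 and 2864.3 in mdx extraocular muscle, and 3135.6, 3801.7 and 4542.7 against 4526.0, 3384.5 and 3722.5 in leg muscle. Heart values were 2164.8, 3138.7 and 2716.2 in dko and 2760.3, 2372.0 and 2070.2 in mdx. The genotypes overlapped in all 3 tissues, with log2 differences of 0.03, -0.02 and 0.14 (SE 0.23 each). Heart had the lowest means, 2401 ± 346 and 2673 ± 488 in mdx and dko against 3827 to 4207 in the skeletal muscles. In mdx mice the difference of heart from leg muscle was -0.65 and that of extraocular muscle from heart 0.74, both of which passed with the block alone (limma, adjusted p = 0.0987 and 0.0741, and 0.0419 and 0.0292 with the block). The blocked call against leg muscle ended without the arrays of any 1 number (limma, adjusted p = 0.109, 0.149 and 0.141 without numbers 1, 2 and 3), and that of extraocular muscle from heart without number 1 or 2 (0.0973 and 0.257) but not number 3 (0.0466). Without the block the extraocular difference from heart passed with 1 of 6 arrays left out, the extraocular array numbered 3 (0.98; limma, adjusted p = 0.0166).

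The gelatinases and Mmp11 gave dim signals. Mmp2 on 161509_at exceeded an array's 40th percentile (319.2 to 420.2) on 4 of 18 arrays, ranged from 37.9 to 499.5, and was lowest on the array numbered 3 in all 6 groups. Its other probe set, 95663_at, exceeded that percentile on 1 array and was not tested. The larger Mmp9 probe set, 99957_at, did so on 2 arrays, at 562.0 in mdx leg muscle and 360.2 in dko extraocular muscle, both numbered 3, and was highest on the array numbered 3 in all 6 groups; 162369_f_at never did. Signals this close to the dim end of the array do not show whether the gelatinases differ between the groups. Mmp11 on 100016_at lay between 179.2 and 576.6, exceeded the percentile on 7 arrays and was highest on the array numbered 3 in 5 of 6 groups. For both tested genes every log2 difference between dko and mdx lay between -0.45 and 0.34, and none passed.

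**Figure D2:**
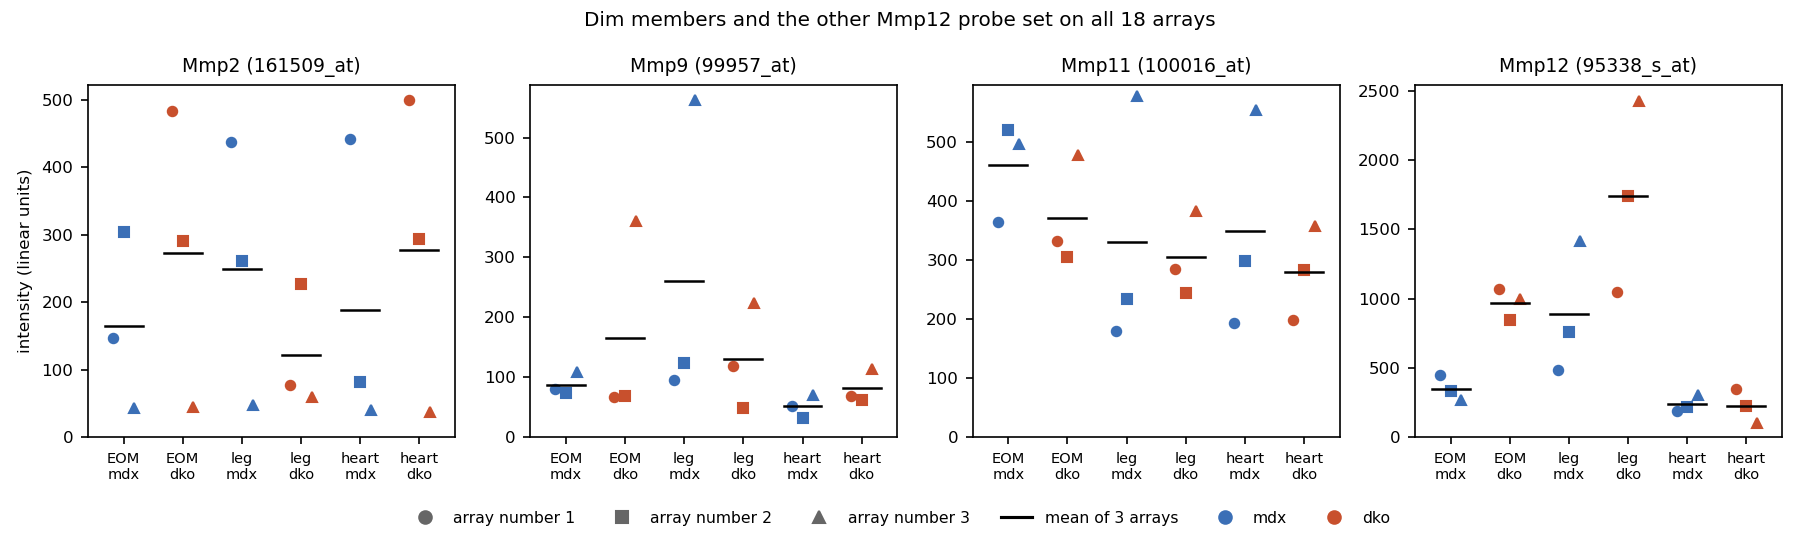
Intensity (linear units, vertical axis from 0) of the brighter probe sets of Mmp2, Mmp9 and Mmp11 and of the Mmp12 probe set 95338_s_at on each of the 18 arrays; symbols give the replicate number and bars the mean of 3 arrays. Triangles, the arrays numbered 3, lie lowest in all 6 groups for Mmp2 and highest in all 6 for Mmp9, while Mmp12 is highest in dko leg muscle.

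Timp1, the inducible inhibitor, was higher in leg muscle than in the other tissues in both genotypes. On 101464_at the leg arrays read 9523.6, 13977.9 and 15938.7 in dko and 6900.3, 6279.4 and 11926.3 in mdx. Each dko array exceeded the mdx array of its number, and the groups overlapped. The means of 13150 ± 3290 and 8369 ± 3100 (SD, n = 3) gave a log2 difference of 0.67 (SE 0.28, 1.59-fold; limma, adjusted p = 0.68; 0.18 with the block). In extraocular muscle Timp1 read 5053.8, 4226.2 and 6341.5 in dko and 3638.6, 3316.2 and 2352.9 in mdx, 0.72 higher in dko (SE 0.28, 1.65-fold; adjusted p = 1; 0.445 with the block). These groups did not overlap. In heart it read 4231.6, 2922.7 and 3928.9 in dko and 3130.2, 3008.8 and 2251.7 in mdx (0.38, SE 0.28), with overlap through dko array 2.

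The Timp1 differences of heart and of extraocular muscle from leg muscle passed. The log2 difference of heart from leg muscle was -1.77 in dko (SE 0.28; limma, adjusted p = 0.000391) and -1.48 in mdx mice (adjusted p = 0.00199), and both calls held with each array left out in turn. That of extraocular from leg muscle was -1.30 in dko (adjusted p = 0.0216) and -1.35 in mdx (adjusted p = 0.0115). The dko call ended without extraocular array 1 or 2 or leg array 2 or 3 (adjusted p = 0.0787 to 0.115), and the mdx call without extraocular array 3 (-1.17; 0.0593) or leg array 3 (-1.07; 0.0504). With the block, the mdx extraocular call ended without the arrays numbered 3 (-0.89, limma, adjusted p = 0.0579). The dko one ended without those numbered 2 (-1.10, adjusted p = 0.196). Without a block and without the arrays numbered 3, an alternative chosen after seeing the data, the mdx call also ended (-0.89, limma, adjusted p = 0.0924). The levels were ordered dko leg, mdx leg, dko extraocular, dko heart, mdx extraocular and mdx heart, and all neighbours overlapped.

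Timp3, the matrix-bound inhibitor, was lowest in leg muscle, the tissue where Timp1 was highest. On 160519_at the leg arrays read 4263.8, 5244.4 and 2539.1 in mdx and 4556.5, 5060.9 and 4956.2 in dko, and the extraocular arrays 9120.6, 11446.6 and 9118.3 and then 8495.4, 11211.3 and 10940.8. Every leg array lay below every extraocular array and every heart array. Extraocular muscle exceeded leg muscle by a log2 value of 1.32 in mdx (SE 0.26; limma, adjusted p = 0.00815) and 1.04 in dko mice (adjusted p = 0.0491), and heart exceeded leg muscle by 0.87 in mdx (adjusted p = 0.0411) and 1.04 in dko (adjusted p = 0.0137). The dko extraocular call ended when any 1 of the 6 arrays was left out (adjusted p = 0.0755 to 0.198), and the mdx heart call without heart array 2 (0.63) or 3 (0.94) or leg array 1 (0.94) or 3 (0.59), at adjusted p = 0.0681 to 0.192. The dko heart call ended without heart array 2 (0.98, limma, adjusted p = 0.0562). The mdx extraocular call held with each array left out in turn. Without all arrays numbered 3 and without a block, an alternative chosen after seeing the data, the mdx extraocular call ended (1.085, limma, adjusted p = 0.077).

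No genotype difference of Timp3 passed. In heart it read 10183.1, 10984.4 and 9301.3 in dko and 5609.5, 10164.7 and 6496.3 in mdx. Each dko array was above its mdx counterpart, and the mdx array numbered 2 overlapped with the dko group. The difference of 0.49 (SE 0.26, 1.40-fold) did not pass (limma, adjusted p = 1; 0.893 with the block). In leg and extraocular muscle the differences were 0.32 and 0.04 (SE 0.26).

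Timp2, which binds both Mmp14 and pro-Mmp2, followed the replicate number. On 93507_at the arrays numbered 3 read 3099.1, 2751.3, 3748.3, 3402.1, 3298.5 and 2693.6 in mdx and dko extraocular, mdx and dko leg, and mdx and dko heart muscle. The other 12 arrays lay between 1115.4 and 1980.8, below every array numbered 3. Log2 differences between dko and mdx were -0.03, 0.19 and -0.19 (SE 0.45 each) in extraocular, leg and heart muscle, and no tissue difference passed. The other Timp2 probe sets, 160116_at and 161515_i_at, and the Timp1 probe set 162107_r_at never exceeded an array's 40th percentile and did not follow the tested probe sets of their genes over the 18 arrays (r = 0.263, -0.157 and -0.176).

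Counted over the family, dko against mdx gave no call without the block among the 9 tested member probe sets in any tissue, over the mean of the tissues or in a difference between tissues. The share of all tested probe sets called was 0.0225% in extraocular muscle, 0.0563% in leg muscle, 0% in heart and 0.09% over the mean of the tissues. At an unadjusted limma p under 0.05 stood 3 of the 9 in extraocular muscle (both Mmp12 probe sets and Timp1), 3 in leg muscle (Mmp3, Mmp12 95338_s_at and Timp1) and 0 in heart, beside 196, 556 and 130 of all 8888. With the block no member passed in extraocular muscle (0.158% of all) or heart (0% of all), nor in a difference of the dko change between tissues (0.0338% of all for extraocular minus leg, 0.0675% for heart minus leg and 0% for extraocular minus heart). Groups without overlap numbered 2 of 9 in extraocular muscle (5.65% of all tested probe sets), 2 of 9 in leg muscle (9.95%) and 0 of 9 in heart (3.92%), and all 4 were higher in dko, as were 2.99% and 5.02% of all tested probe sets in extraocular and leg muscle. The median log2 difference of the 8 genes was 0.19, 0.26 and 0.34 in extraocular, leg and heart muscle, against -0.01, -0.04 and -0.01 over all tested probe sets. Comparisons that share arrays, such as the tissue differences and the genotype differences above, are not independent of each other.

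**Figure D3:**
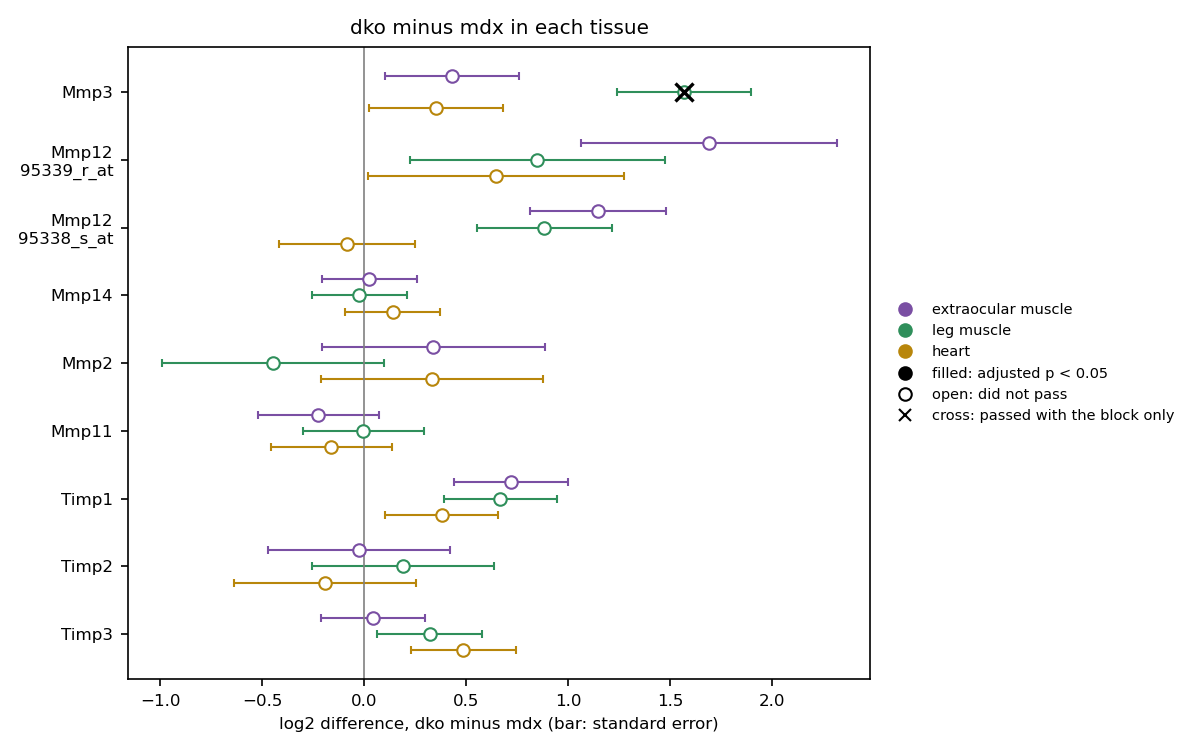
Log2 difference of dko from mdx (horizontal axis; bars, standard error from limma) for the 9 tested member probe sets in extraocular muscle, leg muscle and heart; filled symbols would mark an adjusted p under 0.05, and a cross marks a call made with the replicate block alone. No symbol is filled, the cross stands on Mmp3 in leg muscle at 1.57, and the differences of Mmp14 lie between -0.02 and 0.14.

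Tissue comparisons called more members. Extraocular against leg muscle called 2 of 9 probe sets in mdx (4.02% of all tested probe sets) and 2 of 9 in dko (2.14%), Timp1 and Timp3 in each. Heart against leg muscle called 4 of 9 in mdx (9.97%) and 5 of 9 in dko (10.7%). Extraocular muscle against heart called 1 of 9 in mdx (7.05%), Mmp3, and 2 of 9 in dko (7.66%), Mmp3 and Mmp12 on 95338_s_at. With the block the calls rose to 6 of 9 for mdx heart against leg muscle, where 22.8% of all tested probe sets passed, and to 2 of 9 for mdx extraocular muscle against heart, where 17.7% did. In heart against leg muscle the lower calls were Mmp12, Timp1 and, in dko, Mmp3, and the 1 higher call in each genotype was Timp3. The calls of Mmp12 on 95338_s_at against heart carry the limit of the filter given above.

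**Figure D4:**
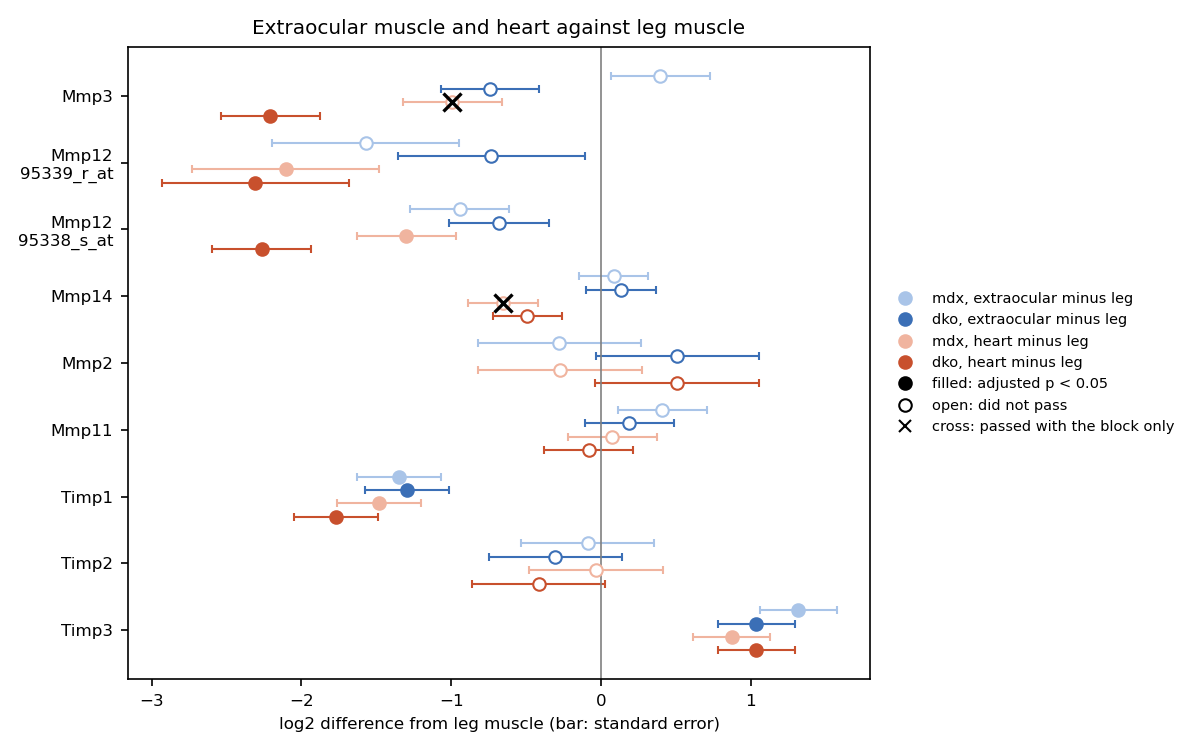
Log2 difference of extraocular muscle and of heart from leg muscle within each genotype (horizontal axis; bars, standard error from limma) for the 9 tested member probe sets; filled symbols mark an adjusted p under 0.05 and crosses a call with the replicate block alone. All 4 Timp1 differences lie between -1.77 and -1.30 and all 4 Timp3 differences between 0.87 and 1.32.

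Other genes of the system were described from lists. Of 29 other metalloproteinases and relatives, 16 were on the array and 9 tested; none passed between dko and mdx in a tissue, with or without the block, and their median log2 differences were 0.13, 0.23 and -0.06 in extraocular, leg and heart muscle. Mmp13, a collagenase beside Mmp12 on chromosome 9, is given here as the 1 other gene of that cluster that was tested. It read 2454.1, 1047.8 and 1180.3 in mdx leg and 1023.0, 756.6 and 506.0 in dko leg muscle, and between 30.5 and 354.4 on the 12 extraocular and heart arrays. Leg muscle thus stood above the other tissues without overlap, while the Mmp13 difference of dko from mdx leg muscle was -0.85 without overlap, which did not pass (limma, adjusted p = 0.667; 0.15 with the block). It exceeded an array's 40th percentile on the 6 leg arrays alone and was admitted to the tests through them, so the tissue levels are given as a description. Mmp10, Mmp8 and Mmp7 of the same cluster never exceeded an array's 40th percentile.

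Of 21 activators and inhibitors of matrix proteolysis 13 of 17 on the array were tested and none passed between dko and mdx in a tissue, and of 24 inducers and transcription factors of Mmp genes 15 of 20 were tested and none passed, with or without the block. Reck, a membrane-anchored inhibitor of metalloproteinases, averaged 856.1 and 695.3 in dko and mdx leg muscle (0.24; limma, adjusted p = 1). Plau, the urokinase that generates plasmin, averaged 336.6 and 436.5 (-0.26; adjusted p = 1).

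Among matrix substrates the calls stood in leg muscle. Of 22 tested matrix genes 19 had a positive dko difference there, with a median of 0.27 against -0.04 over all tested probe sets. Of the 22, 1 passed without the block and 4 with it, beside 0.0563% and 1.2% of all tested probe sets. Postn, the matricellular protein periostin, averaged 21420 in dko and 8938 in mdx leg muscle (1.24; limma, adjusted p = 0.0475). Eln, elastin, the substrate that gives Mmp12 its name of elastase, averaged 14790 and 6152 (1.26; adjusted p = 0.32, and 0.0158 with the block), and Col5a2 (1.02) and Bgn, biglycan (0.94), also passed with the block alone (adjusted p = 0.0204 and 0.017). Of the 22, 0 passed in extraocular muscle or heart.

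Most macrophage markers had higher values in the dko skeletal muscles, with few calls. Of 23 tested markers 21 had a positive dko difference in extraocular muscle (median 0.83), 22 in leg muscle (0.84) and 9 in heart (-0.06), where 48.8%, 44.7% and 47.5% of all tested probe sets were positive. Ctss, the lysosomal protease cathepsin S, averaged 12080 in dko and 2944 in mdx extraocular muscle (2.00; limma, adjusted p = 0.0203). Lgals3 (1.86) and Mpeg1 (1.40) passed there with the block alone (adjusted p = 0.0333 and 0.0481), as Cd53 (2.00), C1qb (1.25), Csf1r (1.00) and C1qc (0.91) did in leg muscle (adjusted p = 0.0415, 0.0395, 0.0456 and 0.0204); with the block 0.158% and 1.2% of all tested probe sets passed in these tissues. The summed intensity of the 24 markers on the array was 65800 to 70990 in dko and 30150 to 37070 in mdx extraocular muscle, 75190 to 142900 and 40600 to 76030 in leg muscle, and 41210 to 44960 and 42070 to 44470 in heart. The sums were thus apart between the genotypes in extraocular muscle, overlapped slightly in leg muscle and overlapped in heart. The part of macrophage genes in the Mmp12 and Timp1 differences was not tested, and in whole tissue more cells of a type and more RNA per cell cannot be told apart.

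Regenerating and slow-fibre markers differed in leg muscle as well. The summed intensity of the regenerating list was 39870 to 51430 in dko leg muscle and 25740 to 32130 in mdx leg muscle. Among 13 tested markers of satellite cells and regenerating fibres 12 had a positive dko difference in leg muscle (median 0.64), and Myh3, embryonic myosin, averaged 8707 in dko and 1981 in mdx (2.04; limma, adjusted p = 0.023). Myh8 (1.08), Myf5 (0.93) and Chrna1 (0.82) passed with the block alone (limma, adjusted p = 0.0289, 0.0456 and 0.0289). In leg muscle 0.0563% of all tested probe sets passed without the block and 1.2% with it. The slow-fibre genes Myh7 (16270 in dko, 867.8 in mdx; 4.40, adjusted p = 0.000559) and, with the block, Myl2 (4.05; adjusted p = 0.00193) and Tnnt1 (1.94; 0.0175) passed upward in dko leg muscle. Whether the leg samples of the 2 genotypes held the same muscles is not given in the labels, and the part of this in the Mmp3 difference was not tested. None of 6 tested neutrophil, 6 tendon and cartilage, 14 endothelium and smooth muscle and 7 gland, skin and eye tissue markers passed in a tissue, with or without the block. Postn, already counted among the matrix substrates, was the 1 call among 14 fibroblast markers.

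**Figure D5:**
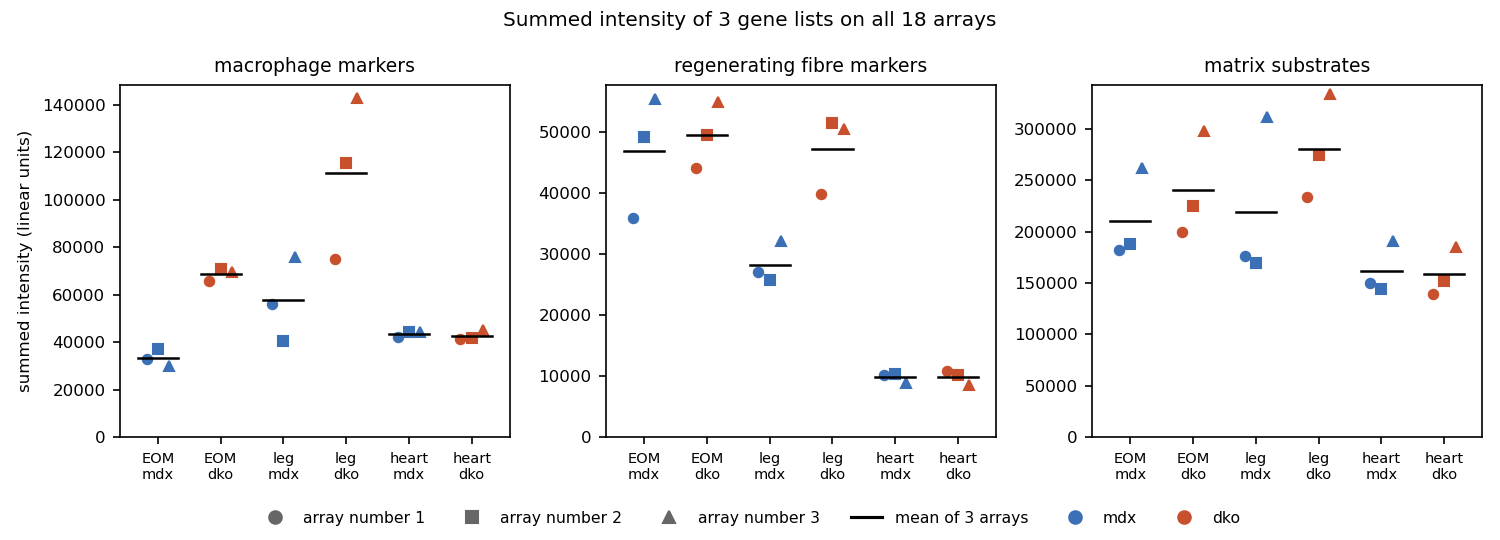
Summed intensity (linear units, vertical axis from 0) of the macrophage, regenerating fibre and matrix substrate lists on each of the 18 arrays, by tissue (EOM, extraocular muscle) and genotype; symbols give the replicate number and bars the mean of 3 arrays. The macrophage sums of the 3 dko extraocular arrays (65800 to 70990) lie above those of the 3 mdx arrays (30150 to 37070), and the dko and mdx hearts overlap.

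Members were also compared by shape over the 18 arrays, as Pearson's r of log2 values after the mean of each replicate number was removed; the points share arrays, tissues and genotypes, so r is a description. Mmp12 and Timp1 were the most alike pair of members (r = 0.851), then Mmp3 with Mmp12 (0.795) and Mmp3 with Timp1 (0.713), and Timp1 ran against Timp3 (-0.679). Outside the family, the genes most like Mmp3 were Anxa2 (0.952), S100a6 (0.94) and the lysosomal protease gene Lgmn (0.936). Those most like Mmp12 were Lgals3 (0.931), Ctss (0.904) and Mt2 (0.899), of which the first pair stand in the macrophage list. Those most like Timp1 were Tnc, tenascin C (0.945), Adam8 (0.933) and Mpeg1 (0.93). With the replicate number not removed, r fell to 0.585, 0.742 and 0.894 for the 3 matches of Mmp3. For those of Mmp12 it was 0.772, 0.796 and 0.819, and for those of Timp1 0.942, 0.821 and 0.885. For the matches of Mmp14 and Timp3 named below it was 0.735 to 0.871.

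For Mmp14 the closest were Map2k1 (0.865), Pepd (0.859) and Ctsb (0.854), and for Timp3 they were Mbtps1 (0.929), Spsb1 (0.921) and Slc38a2 (0.921). For the dim members and Timp2 they were Hdac3 (0.774), Atp13a1 (0.766) and Ascl2 (0.763) for Mmp2, Pebp1 (0.816), Scin (0.803) and Pon1 (0.799) for Mmp11, and P2rx6 (0.864), Krt84 (0.807) and Ugcg (0.79) for Timp2. Of these 9 matches 5 had an r below 0 when the replicate number was not removed: P2rx6 (-0.163) and Krt84 (-0.667) with Timp2, Pebp1 (-0.201) and Scin (-0.455) with Mmp11, and Atp13a1 (-0.173) with Mmp2. Tnc, the closest match of Timp1, averaged 3331 and 1192 in dko and mdx leg muscle, 445.1 and 207.2 in extraocular muscle and 315 and 305.4 in heart, so that leg muscle was highest in each genotype.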

How the data were processed

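The authors deposited 1 table of intensities, 12488 probe sets on 18 Affymetrix mouse arrays; per the labels a standard Affymetrix protocol was used, and scaling software and detection calls are not given in the sources used here. Gene names came from the platform annotation: 10833 probe sets had 1 symbol, 396 several and 1193 none. The 66 control probe sets were left out, and 8888 probe sets above an array's 40th percentile on at least 3 arrays were tested. The intensities were used as deposited, with 166.7, the median of the arrays' 25th percentiles, added before log2. All 6 groups were fitted together in limma 3.58.1 (R 4.3.3; residual df 12, prior df 3.52).

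The replicate numbers come from the labels. Deviations of dko and mdx arrays of the same tissue and number from their group means correlated at 0.404 to 0.751 in all 9 pairs (median 0.61). Where the number was shared but the tissue was not, 36 pairs correlated at 0.327 to 0.74 (median 0.536). Arrays numbered 3 ran against those numbered 1 or 2 of other groups (60 pairs, -0.628 to -0.28). The number thus went with a shift shared across tissues, and a pairing of single dko and mdx arrays was not shown. A fit with a block is given as an alternative. The block was the number within tissue for genotype comparisons (residual df 6) and the number alone for tissue comparisons (residual df 10). Alternatives also changed the constant and the filter, and left out each array and each number. Simulated data held 100 probe sets changed by a log2 value of 1 and another 100 changed by 2. A change of 2 was recovered in 79% to 85% and a change of 1 in 35% to 41%. The values were drawn independently, without a shift shared by arrays of one replicate number. Recovery also depends on how many probe sets change, so these rates need not hold for the deposited arrays.

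A gene with several probe sets was represented by the one with the highest mean over all arrays. List genes were named where they passed between dko and mdx in a tissue with or without the block, up to 8 per list. The exception is 1 gene of the skeletal muscle list, higher in dko leg muscle with the block alone, which is not named. Mmp13, Reck, Plau, Tnc, Alpl, Acta1, Myh6, Tnnt3 and Kcna1 were named outside that rule, after their values were seen or as checks of the labels. Members, lists and tests were chosen with earlier results of these data known. Promoter sequences and gene order are from RefSeq tables of GRCm38.p6, which named 7 of the 9 members. Python 3.11.15 and matplotlib 3.10.9 drew the figures.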

Additional observations from a re-analysis of the deposited data

How the results depend on the processing

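Over the alternatives run, 2260 values of single member probe sets were computed for 117 differences, of which 16 passed the test. No called difference changed sign; 57 values fell below the threshold and 13 rose past it, and 173 changed sign among differences that were never called, the largest of which had an absolute log2 difference of 0.534. Under all 17 alternatives 4 called differences passed: Timp1 in mdx heart against leg muscle, and Timp1, Mmp3 and Mmp12 (95338_s_at) in dko heart against leg muscle.

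With the replicate block, which pairs arrays of one number, the count of called member probe sets rose from 0 to 1 for dko against mdx in leg muscle, from 0 to 1 over the mean of the tissues and from 1 to 2 for mdx extraocular muscle against heart, and it moved no other count by more than 1.5 times. With 41.68 as the constant or with no filter, dko extraocular against leg muscle called 1 in place of 2, and with 666.8 as the constant dko against mdx in leg muscle called 1 in place of 0. With 1 array left out at a time the counts were 1 to 3 for mdx extraocular against leg muscle, 1 to 3 for mdx heart against leg muscle, 0 to 2 for mdx extraocular muscle against heart, 0 to 1 for dko extraocular against leg muscle, 3 to 5 for dko heart against leg muscle and 1 to 2 for dko extraocular muscle against heart. With the block and the arrays of 1 number left out, the counts were 1 to 3, 2 to 5, 0 to 2, 0 to 2, 4 to 5 and 1 to 2 in the same order, and 0 in each comparison of dko with mdx. Leaving out the 6 arrays numbered 3 without a block, an alternative chosen after seeing the data, gave 0, 2, 0, 1 and 1 for mdx extraocular against leg, mdx heart against leg, mdx extraocular against heart, dko extraocular against leg and dko extraocular against heart. The cause of these shifts was not tested beyond the fewer arrays. The 3 arrays a group limit the precision, and Mmp2, Mmp9 and Mmp11 lay near the dim end of the arrays, where the arrays may not resolve a difference.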
